A study of Ovis aries with 16 samples.

Results

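The genes described here were 72 of the 30722 genes counted in cultured sheep disc cells, and they were chosen by their own measured values as higher in cells of the nucleus pulposus than in cells of the annulus fibrosus in every animal. Levels were expressed as CPM (counts per 1000000), the reads of a gene scaled to the same total of counted reads in every library. A gene qualified by level when its CPM was at least 2 in at least 4 of the 16 libraries and its mean CPM was under 1000, which left 12069 genes. The difference of log2(CPM + 0.5) between nucleus and annulus cells was then taken within each of 8 animals, and a gene was kept when the difference was above 0 in all 8 and averaged at least 1, a 2-fold difference. Of the genes that qualified by level, 336 (2.78%) were higher in nucleus cells in all 8 animals and 72 (0.597%) also reached the mean. Because these values selected the genes, the difference between both cell types is given below as a description with no test.

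The samples were nucleus pulposus cells (NPC) and annulus fibrosus cells (AFC) grown in monolayer to passage 1 in DMEM with serum. They came from lumbar discs of female Vendée sheep, pooled within the animal. The young group comprised 4 lambs of 6 months (Y1 to Y4) and the old group 4 ewes of 7 to 8 years (O1 to O4), and each animal gave 1 NPC and 1 AFC library. Animals were independent replicates, no treatment was given to any group, and the cells were no longer in their tissue when RNA was taken.

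The nucleus pulposus is the hydrated centre of the intervertebral disc, whose cells are embedded in a matrix rich in proteoglycan and type II collagen and descend from the notochord. The annulus fibrosus surrounds it with lamellae rich in type I collagen, made by fibroblast-like cells that descend from the sclerotome. Cells of both regions are known to drift from their tissue phenotype when grown on plastic. A gene that is higher in NPC of every animal at passage 1 is thus one whose difference was present after expansion, whatever its level in the tissue was.

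Genes carry Ensembl identifiers, and for 0 of the 30722 did the sources used here give a symbol. The 72 genes are therefore described by their levels and their behaviour across animals, with few identifiers given, and their products are not named. For the same reason the labels NPC and AFC could not be checked against marker genes of either region or of other cell types, and pathway lists were not applied.

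Total counts ranged from 28782526 in Y4 NPC to 51800007 in O4 AFC, with a median of 47438906. NPC had the higher total in 3 of the 8 animals, so that depth did not follow the cell type. All 16 libraries were used.

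The 72 genes were mostly expressed at modest levels. Their mean CPM over the 16 libraries ran from 1.63 to 446 with a median of 8.46, against a median of 23.3 for the 12069 genes that qualified by level. A mean under 5 CPM was seen in 28 of them (38.9%) and in 14.2% of the genes that qualified. The 5 most abundant, each with a mean of at least 119.6 CPM, took 56.7% of the reads of all 72.

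The limit of 2 CPM was passed in NPC more often than in AFC, as the choice favours. In NPC 46 of the 72 reached 2 CPM in all 8 libraries, whereas 27 did so in all 16 libraries. In AFC, 27 genes reached 2 CPM in fewer than 4 libraries and 12 in none, so these 27 genes qualified by level only with the help of NPC libraries. The 12 had to be higher in NPC in the animals whose NPC library passed. The lowest count of any of the 72 genes in an NPC library was 7 reads, and 3 genes had no read in at least 1 AFC library, 4 libraries in all. A count of 0 allows a true value of up to 3 reads at these depths, counting error only.

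The mean difference between NPC and AFC lay between 1.01 and 2.81 on the log2 scale, with a median of 1.43, or 2.7-fold. It was below 1.5 for 40 genes and at least 2 for 11. The added 0.5 understates the differences of the scarcest genes. In bulk RNA from a culture, fewer cells of a type that makes a transcript and less of that transcript per cell cannot be told apart.

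Levels overlapped between both cell types more often than not. Of the 72 genes, 11 had all 8 NPC libraries above all 8 AFC libraries, a pattern found in 0.199% of the genes that qualified by level. Among young animals alone NPC lay above AFC without overlap for 34 of the 72 genes, and among old animals alone for 35 of the 72. Of the 12069 genes that qualified by level, 1.47% did so in young and 3.99% in old animals.

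Members varied widely between animals. The SD of the 8 differences had a median of 0.78, against 0.33 for the genes that qualified by level. The smallest of the 8 differences was below 0.5 for 48 genes and below 0.1 for 8, and it reached 1 for 7 genes. The median over genes of the smallest difference was 0.30 and that of the largest was 2.66.

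**Figure D1:**
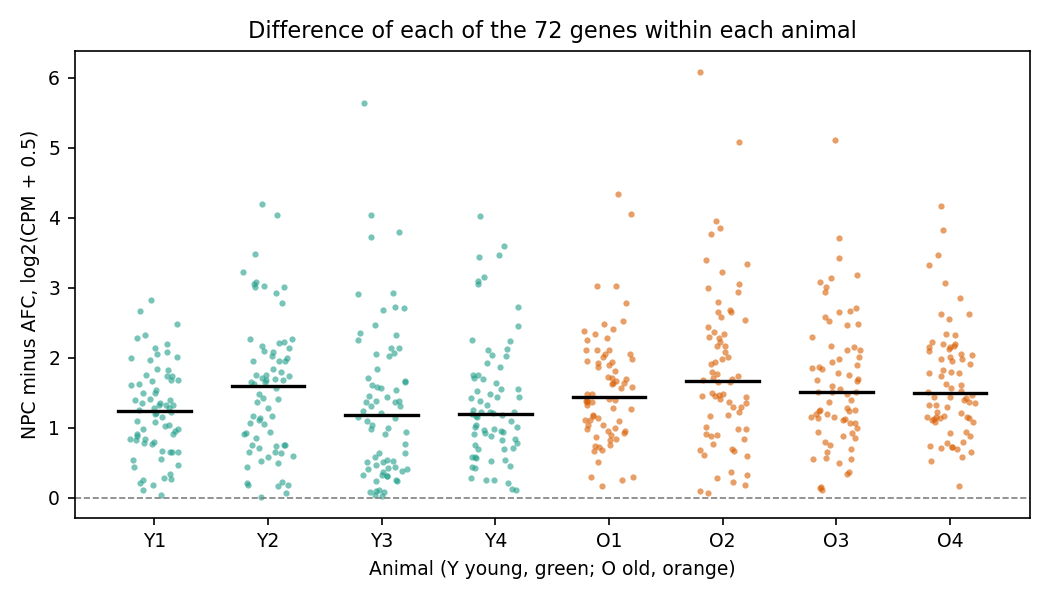
NPC minus AFC difference in log2(CPM + 0.5) of each of the 72 genes (points) in each animal, with the median over genes as a black line and young animals in green and old animals in orange. All points lie above 0, as the choice of the genes requires, and the medians run from 1.19 in Y3 to 1.67 in O2.

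The median difference over the 72 genes was 1.25 in Y1, 1.59 in Y2, 1.19 in Y3 and 1.2 in Y4. In old animals it was 1.45 in O1, 1.67 in O2, 1.51 in O3 and 1.49 in O4. Y2 was the one young animal in the range of the old animals. Over all genes that qualified by level the median was within 0.082 of 0 in each animal, and the SD of their differences ran from 0.40 in Y1 to 0.95 in O2.

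Y3 most often held the smallest of the 8 differences, for 16 genes, followed by Y1 for 13 and Y2 for 10. The old animals O1, O2, O3 and O4 held it for 7, 8, 6 and 3 genes. The largest difference was in O2 for 17 genes, in Y2 and O3 for 16 each, and in Y1 for none. Y2 thus contributed both many of the smallest and many of the largest differences.

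The requirement for all 8 animals removed more genes than it kept. A mean difference of at least 1 was reached by 191 genes, and 71 of these failed in a single animal. That animal was Y2 for 33 genes and Y3 for 20, O2 for 6, Y1, Y4 and O3 for 3 each, O1 for 2 and O4 for 1. A further 38 genes failed in 2 animals, 8 in 3 and 2 in 4. On the other side, 264 genes were higher in NPC in all 8 animals with a mean difference below 1.

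The genes at the edge of the choice differed little. ENSOARG00020013094 and ENSOARG00020001091 were just inside, both with a mean difference of 1.01, and ENSOARG00020008717 at 0.995 and ENSOARG00020011357 at 0.996 were just outside. Their smallest differences over the animals were 0.11, 0.14, 0.28 and 0.17.

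The gene with the largest mean difference, ENSOARG00020005238, was also among the most abundant, with a mean of 262 CPM. In NPC it measured 626, 186, 542 and 461 CPM in Y1 to Y4 and 69.3, 613, 212 and 473 CPM in O1 to O4. In AFC it measured 142, 165, 533 and 95.9 CPM in Y1 to Y4 and 2.95, 17.5, 5.67 and 46.9 CPM in O1 to O4. All 4 old AFC libraries were below all other 12 libraries, whereas in Y2 and Y3 both cultures had nearly the same level. The differences were accordingly 4.34, 5.09, 5.11 and 3.32 in O1 to O4, and 2.13, 0.18, 0.02 and 2.26 in Y1 to Y4.

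The gene with the next largest mean difference, ENSOARG00020025675, was scarce and had a single library far from the rest. In AFC it ranged from 0.0612 to 0.921 CPM. In NPC it measured 5.65, 4.1, 6.66 and 9.69 CPM in Y1 to Y4 and 0.953, 60.1, 0.978 and 1.75 CPM in O1 to O4. O2 NPC was far above every other library, and the difference in O2 was 6.08 against 1.09 to 1.74 in the other old animals. The mean difference was 2.66 over all animals and 2.17 without O2.

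The largest minimum differences were those of ENSOARG00020022237 and ENSOARG00020014805. ENSOARG00020022237 measured 31.6, 13.1, 17.8 and 14.0 CPM in NPC of Y1 to Y4 and 14.8, 21.7, 6.75 and 21.3 CPM in NPC of O1 to O4. In AFC it measured 9.64, 3.80, 3.65 and 4.86 CPM in Y1 to Y4 and 3.02, 7.56, 1.78 and 3.22 CPM in O1 to O4. Its differences lay between 1.44 and 2.55 although the lowest NPC library, that of O3, was below the AFC libraries of Y1 and O2.

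ENSOARG00020014805 measured 22.9, 18.1, 23.5 and 18.8 CPM in NPC of Y1 to Y4 and 30.6, 17.6, 10.9 and 17.2 CPM in NPC of O1 to O4. Its AFC levels were 8.29, 4.15, 6.19 and 5.69 CPM in Y1 to Y4 and 1.37, 3.38, 2.02 and 3.96 CPM in O1 to O4. All NPC libraries were above all AFC libraries, and the difference was at least 1.41 in every animal. All 4 old AFC libraries were below the young AFC libraries.

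**Figure D2:**
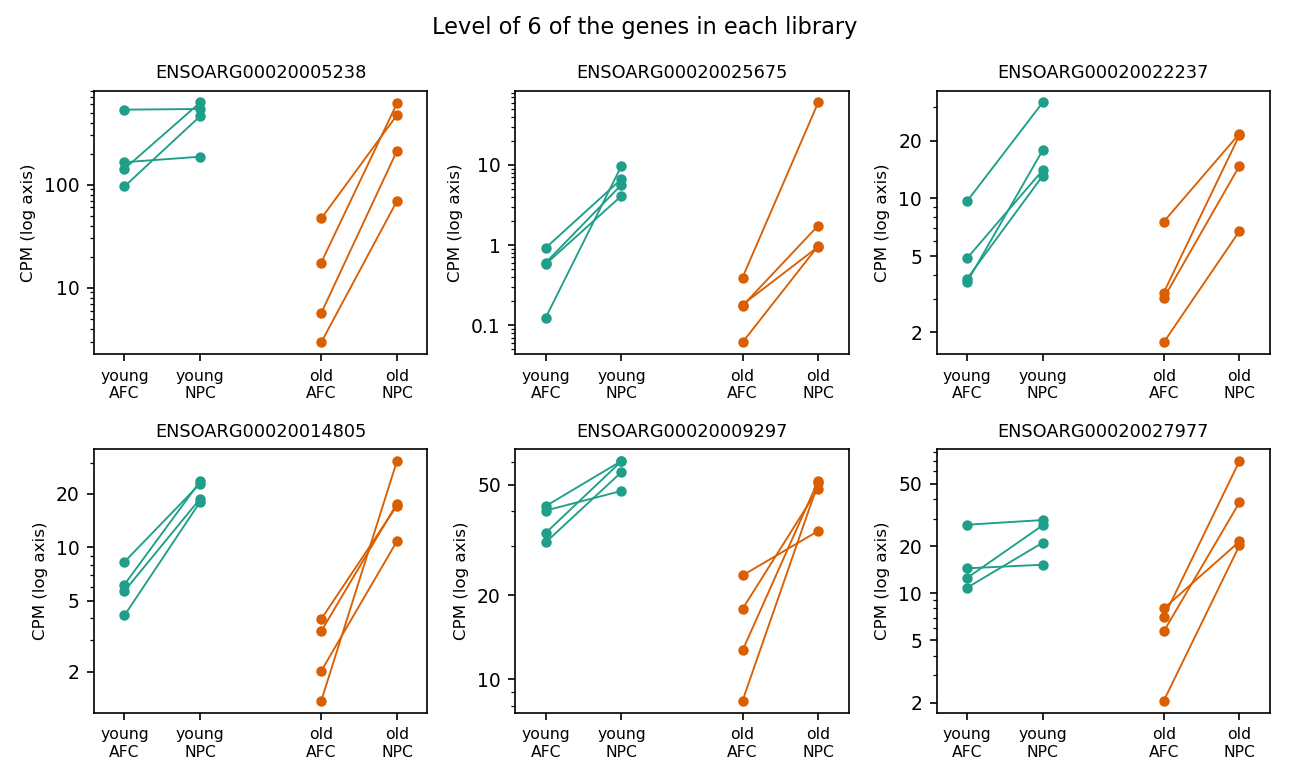
CPM on a log axis of 6 of the 72 genes in the 16 libraries, with lines joining the AFC and NPC libraries of an animal and young animals in green and old animals in orange. ENSOARG00020005238, ENSOARG00020014805, ENSOARG00020009297 and ENSOARG00020027977 have all 4 old AFC points below all 4 young AFC points. ENSOARG00020025675 has 1 old NPC point at 60.1 CPM, far above the others.

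Splitting the variance of each gene over the 16 libraries, the cell type took a median of 49.4% over the 72 genes, against 6.48% over the genes that qualified by level, a contrast that follows from the choice. Differences between animals of the same age, shared by both of their cultures, took 27.4% against 34.9%. Age took 4.66% against 4.36%, and the interaction of age and cell type 1.38% against 2.47%. The shares of a gene add up to the whole, so a larger share of the cell type leaves less for the other terms. The interaction also rests on the differences that chose the genes, so nothing is read from these contrasts. The remainder, differences between cultures that varied among animals of an age, took 9.25% against 36.3%, which the choice of consistent genes lowers. These are shares of the sum of squares, and the animal terms hold more degrees of freedom than age or the interaction, so terms are not ranked.

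The animals did not share an order of genes. Rank correlations of the 72 differences between animals ranged from -0.08 to 0.40 over the 6 pairs of old animals, from -0.10 to 0.52 over the 6 pairs of young animals and from -0.55 to 0.49 over the 16 pairs across ages. These are descriptions over the same 72 genes, which are not independent. The deviations of both cultures of an animal from their group means correlated over the 72 genes by 0.19 in Y2 to 0.75 in O1. Over all genes tested the correlations ran from -0.19 in O2 to 0.53 in O1. A choice on positive differences in every animal itself favours genes whose cultures deviate together, so nothing is read from the higher values of the 72.

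The rule was also applied to animals of one age and the differences read in the other age, as a description added after the data were seen. The level limits still used all libraries, so the choice of a scarce gene could rest in part on NPC libraries of the other age, and the shares are no independent replication. Applied to the 4 young animals alone, the rule gave 87 genes, of which 55 (63.2%) were higher in NPC in all 4 old animals, against 13.2% of the genes that qualified by level. Applied to the 4 old animals alone it gave 285 genes, of which 97 (34.0%) were higher in NPC in all 4 young animals, against 6.84%.

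A smaller median in the age not used follows from choosing on the other, and is given without a reading. For the 87 genes chosen in young animals, the median difference was 1.34 in young and 1.18 in old animals. For the 285 chosen in old animals it was 1.40 in old and 0.59 in young animals. The whole rule was met in each age separately by 46 genes, and no gene chosen in one age was lower in NPC in all 4 animals of the other.

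The difference was also described by age, with no test, because these are the values that chose the genes. The mean difference was larger in old animals for 47 genes (65.3%) and in young animals for 25, with medians over genes of 1.58 and 1.28. It was at least 1 in every old animal for 27 genes and in every young animal for 11. Of the genes that qualified by level, 1.73%, 6.13%, 2.97% and 3.96% had a difference of at least 1 in Y1 to Y4. In O1 to O4 these shares were 2.88%, 8.83%, 6.79% and 3.25%. For 8 genes (11.1%) each of the 4 old animals had a larger difference than any young animal, against 1.38% of the genes that qualified by level. For 0 genes each young animal had a larger difference than any old animal, against 1.34%. Nothing is read from these shares. The SD of the differences over all genes that qualified was 0.40, 0.70, 0.50 and 0.55 in Y1 to Y4 and 0.55, 0.95, 0.69 and 0.51 in O1 to O4, so that ages overlapped. Its part in these counts was not tested.

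**Figure D3:**
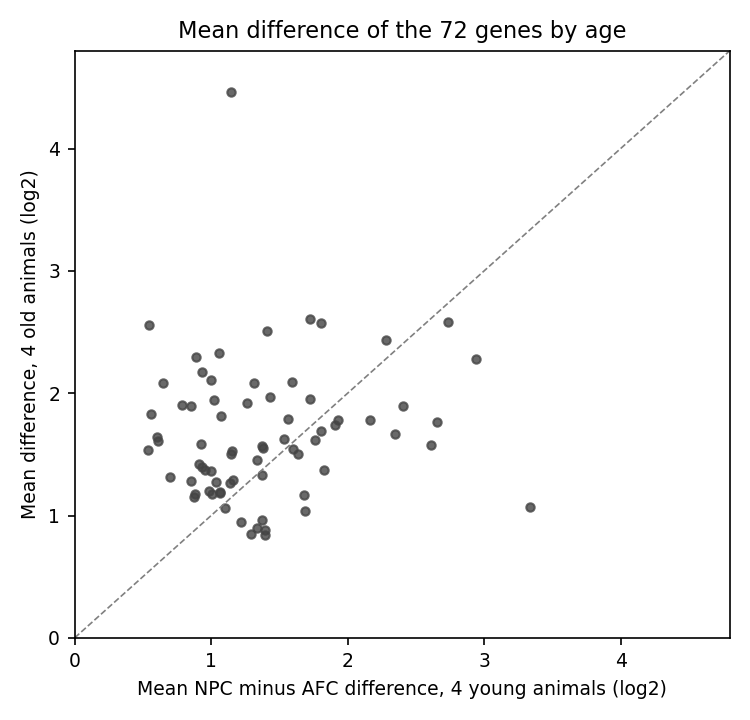
Mean NPC minus AFC difference of each of the 72 genes in the 4 young animals (horizontal axis) and in the 4 old animals (vertical axis), in log2(CPM + 0.5), with the line of equal differences dashed. Of the 72 points 47 lie above the line, and the point highest on the vertical axis is ENSOARG00020005238 at 1.15 in young and 4.46 in old animals.

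The next comparisons asked whether the 72 genes differed with age in NPC, in AFC or between both. The rule did not use age, but it used the same libraries, and low values in old AFC could favour the choice of a gene. An age difference of the 72 genes in AFC therefore cannot be told apart from their choice, and the shares below are descriptions. The counts of all genes were fitted with edgeR's quasi-likelihood test on the 4 groups, and p-values were adjusted by Benjamini-Hochberg over all 15521 genes tested, with 0.05 as the threshold. All 72 genes were tested, and none passed in NPC, in AFC, in both cultures of an animal summed, or in the interaction of age and cell type. Few genes passed at all: 0.0129% in NPC (2 genes), 0.00644% in AFC (1 gene), 0% of the 15889 genes tested in the sums and 0% in the interaction.

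Short of that threshold, lower values in old AFC were common among the 72 genes. In AFC their log2 fold changes from young to old had a median of -0.50, against 0.02 over all genes tested, and 49 of the 72 were lower in old AFC. An unadjusted p under 0.05 was reached by 24 genes (33.3%), 20 lower and 4 higher in old AFC, against 9.36% of all genes. In NPC the median was -0.01, 36 genes were lower and 36 higher, and 6 genes (8.33%) had an unadjusted p under 0.05, against 6.78% of all genes. With an animal left out, the NPC median ran from -0.12 (without O2) to 0.12 (without O3). The genes under 0.05 then numbered from 4 (5.56%, without Y3) to 10 (13.9%, without O3), against 3.65% and 9.75% of all genes. The 72 genes share 8 animals and move together, so these counts are not 72 separate observations.

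**Figure D4:**
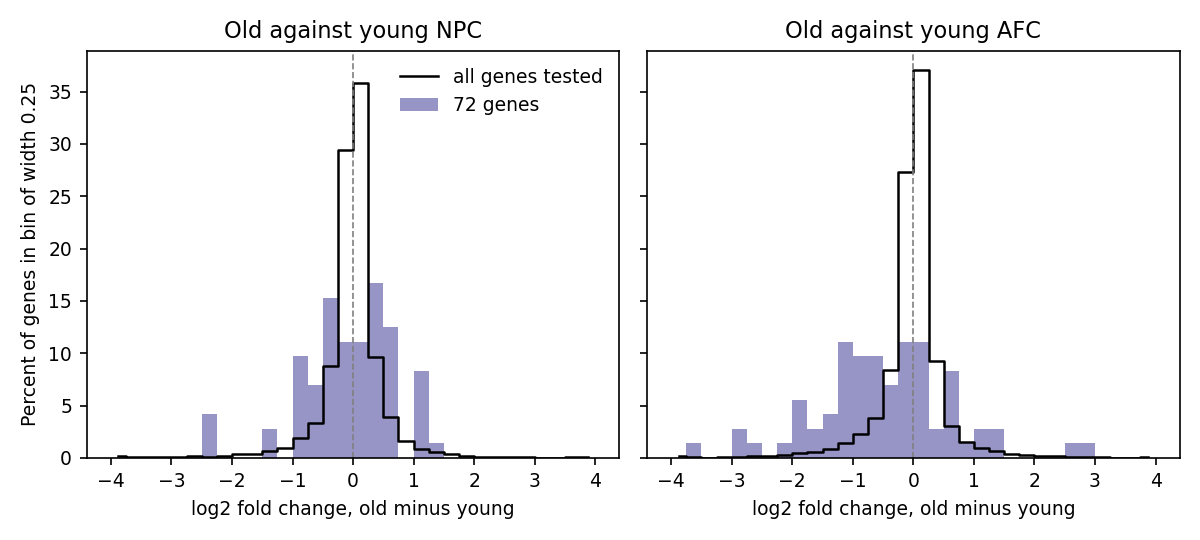
Percent of genes in bins of log2 fold change from young to old (bin width 0.25) for the 72 genes (bars) and all genes tested (line), in NPC on the left and AFC on the right. Both plots have the line centred near 0, and the bars are centred near 0 in NPC and shifted to negative values in AFC, with a median of -0.50.

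DESeq2, used as an alternative on the same 4 groups, called 8 of the 72 genes in AFC, 7 lower and 1 higher in old animals, against 1.45% of all genes. It called none in NPC, against 0.457% of all genes. Whether a gene of the 72 passes in AFC thus depended on the tool. Leaving out each animal in turn gave between 16 and 27 genes at an unadjusted p under 0.05 in AFC, against 4.88% to 11.1% of all genes, with a median fold change between -0.65 and -0.33. Without Y3, 16 genes (22.2%) were under 0.05.

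The smallest p among the 72 genes in AFC was that of ENSOARG00020009297. In AFC it measured 33.5, 40.3, 41.8 and 31.0 CPM in Y1 to Y4 and 8.36, 17.9, 12.7 and 23.6 CPM in O1 to O4, so that both ages did not overlap. In NPC it measured 60.6, 47.4, 60.7 and 55.4 CPM in Y1 to Y4 and 50.6, 48.4, 51.6 and 34.1 CPM in O1 to O4. Its log2 fold change in AFC was -1.22 ± 0.25 (SE, n = 4 and 4 animals; edgeR adjusted p = 0.143, DESeq2 adjusted p = 0.00185). Without O4, the old animal with the highest AFC level, the edgeR adjusted p was 0.0254, with a fold change of -1.52. With any other animal left out, the edgeR adjusted p ran from 0.152 (without Y1) to 0.587 (without Y3). In the edgeR fit on the 8 AFC libraries alone, the adjusted p was 0.393. In NPC the fold change was -0.30 ± 0.25.

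ENSOARG00020005238, the gene of the largest mean difference, came next. Its log2 fold change was -3.62 ± 0.89 in AFC (edgeR adjusted p = 0.209, DESeq2 adjusted p = 0.00348). In NPC it was -0.43 ± 0.80 (edgeR adjusted p = 0.943). The 4 young AFC libraries had at least 95.9 CPM and the 4 old AFC libraries at most 46.9 CPM, as listed above.

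Of the 23 genes that were higher in old AFC, ENSOARG00020000314 and ENSOARG00020024751 had the smallest p. ENSOARG00020000314 measured 0.695, 0.116, 0.691 and 0.579 CPM in AFC of Y1 to Y4 and 9.37, 3.27, 1.27 and 1.66 CPM in AFC of O1 to O4, with no overlap between ages. Its log2 fold change was 2.90 ± 0.85 (edgeR adjusted p = 0.294, DESeq2 adjusted p = 0.0169). ENSOARG00020024751 measured 2.59, 4.01, 3.19 and 6.08 CPM in young AFC and 11.9, 11.9, 9.18 and 5.73 CPM in old AFC. O4 lay within the range of the young animals, and the fold change was 1.28 ± 0.39 (edgeR adjusted p = 0.2996).

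In NPC the genes with the smallest p were ENSOARG00020009778 and ENSOARG00020022535, both lower in old animals. ENSOARG00020009778 measured 5.49, 3.35, 26.1 and 3.51 CPM in NPC of Y1 to Y4 and 1.81, 1.01, 0.715 and 3.47 CPM in O1 to O4. The young libraries spread widely, O4 lay above the lowest young library, and the log2 fold change was -2.47 ± 0.74 (edgeR adjusted p = 0.583). It was -1.25 without Y3. In AFC this gene was scarce throughout, from 0.0329 CPM in Y3, a single read, to 0.669 CPM in O2.

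ENSOARG00020022535 measured 46.5, 20.7, 60.4 and 23.9 CPM in NPC of Y1 to Y4 and 6.35, 4.91, 12.8 and 6.71 CPM in NPC of O1 to O4. In AFC it measured 18.2, 12.9, 31.2 and 5.15 CPM in Y1 to Y4 and 0.338, 0.866, 1.88 and 5.93 CPM in O1 to O4. Both ages were apart in NPC, and in AFC O4 reached the lowest young level. It was the 1 gene of the 72 with every old NPC library below every young one. Its log2 fold changes were -2.32 ± 0.72 in NPC (edgeR adjusted p = 0.586) and -2.84 ± 0.74 in AFC (edgeR adjusted p = 0.228, DESeq2 adjusted p = 0.00572). In both cultures summed, the DESeq2 adjusted p was 1.59e-05.

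The genes higher in old NPC with the smallest p were ENSOARG00020024439 and ENSOARG00020034502. ENSOARG00020024439 measured 16.1, 7.11, 8.73 and 20.2 CPM in NPC of Y1 to Y4 and 17.4, 41.1, 26.1 and 31.5 CPM in NPC of O1 to O4, with O1 below Y4. Its log2 fold change was 1.13 ± 0.47 (edgeR adjusted p = 0.701). ENSOARG00020034502 had 0.56 ± 0.31 (edgeR adjusted p = 0.788), with 53.6 to 68.0 CPM in young NPC and 44.2 to 153 CPM in old NPC, and its ages overlapped. Its fold change was 0.20 without O2.

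Groups of libraries without overlap were counted as well. In AFC 10 of the 72 genes had every old library below every young library and 2 had every old library above, that is 13.9% and 2.78%, against 1.78% and 1.92% of the genes that qualified by level. In NPC 1 of the 72 (1.39%) was below and 0 above, against 1.8% and 3.14%.

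When both cultures of an animal were summed, the median fold change of the 72 genes was -0.14, and 10 genes (13.9%) had an unadjusted p under 0.05, 9 of them lower in old animals, against 8.02% of all genes. With an animal left out the median ran from -0.29 (without O2) to -0.03 (without Y3). The genes under 0.05 then numbered from 5 (6.94%, without Y3) to 16 (22.2%, without O3), against 4.86% and 8.87% of all genes. DESeq2 called 4 of the 72, all lower in old animals, against 1.38% of all genes. Raw counts were summed, so the library with more reads weighed more in an animal's sum. In Y3 NPC had 50874478 reads and AFC 30391717, and in Y4 NPC had 28782526 and AFC 48346914. The effect of this on the sums was not tested. Low values in old AFC also enter the sums and cannot be told apart from the choice of the genes. The lowest edgeR values were those of ENSOARG00020009297 (-0.61 ± 0.09, edgeR adjusted p = 0.109, DESeq2 adjusted p = 1.74e-06) and ENSOARG00020020860 (-0.81 ± 0.13, edgeR adjusted p = 0.150, DESeq2 adjusted p = 4.48e-05). ENSOARG00020020860 was lower in every old AFC library, at 12.8 to 38.7 CPM against 41.0 to 44.0 CPM. In NPC it measured 45.3 to 64.5 CPM in old and 64.4 to 110 CPM in young animals, which overlapped by 1 library of each age. In the other direction ENSOARG00020024439 (0.80 ± 0.33, edgeR adjusted p = 0.602) and ENSOARG00020002116 (0.51 ± 0.22, edgeR adjusted p = 0.622) had the smallest p. The latter was 0.34 without O1.

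The interaction of age and cell type is the old minus young contrast of the differences on which the genes were chosen. Its values are therefore descriptions of the 72 genes, and its p-values are no test of them. The median over the 72 genes was 0.39 on the log2 scale, against 0.01 over all genes. A positive value, a larger NPC minus AFC difference in old animals, was seen in 49 of the 72 (68.1%), against 51.0% of all genes. An unadjusted p under 0.05 was reached by 5 genes (6.94%), 4 of them with a larger difference in old animals, against 4.4% of all genes. With an animal left out these numbered from 4 (5.56%, without Y3) to 11 (15.3%, without O4), against 2.08% and 4.38% of all genes. DESeq2 on the 4 groups gave 0 of the 72 an adjusted p under the threshold, against 0.0322% of all genes.

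The interaction was also fitted with each animal as its own control. In that fit, with a replicate block for the animal, edgeR gave 15 genes (20.8%) with an unadjusted p under 0.05, 14 of them larger in old animals, against 5.48% of all genes, and none passed after adjustment. DESeq2 with the block put 4 of the 72 under the threshold, all with a larger difference in old animals, against 0.445% of all genes. One of the 4 was ENSOARG00020005238.

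ENSOARG00020027977, another of these 4, had an interaction of 2.18 ± 0.62 in the fit without the block. It measured 27.1, 15.2, 29.3 and 21.0 CPM in NPC of Y1 to Y4 and 21.4, 69.8, 20.2 and 38.0 CPM in NPC of O1 to O4. In AFC it measured 12.5, 14.4, 27.4 and 10.8 CPM in Y1 to Y4 and 8.00, 7.04, 2.06 and 5.71 CPM in O1 to O4. Its differences were 1.09, 0.07, 0.10 and 0.92 in young and 1.37, 3.22, 3.01 and 2.63 in old animals, which did not overlap.

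ENSOARG00020023556 was the most abundant of the 72 genes. In NPC it measured 520, 794, 462 and 476 CPM in Y1 to Y4 and 706, 913, 350 and 667 CPM in O1 to O4. In AFC it measured 277, 351, 447 and 437 CPM in Y1 to Y4 and 238, 131, 123 and 245 CPM in O1 to O4, every old library below every young one. The interaction was 1.24 ± 0.43. Its differences were 0.91, 1.17, 0.05 and 0.12 in Y1 to Y4 and 1.57, 2.80, 1.51 and 1.44 in O1 to O4.

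The opposite pattern, a smaller difference in old animals, was seen in ENSOARG00020009778. Its interaction was -3.58 ± 1.09, and -2.03 without Y3, with differences of 2.82, 2.15, 5.64 and 2.73 in young and 1.58, 0.37, 0.15 and 2.16 in old animals. O4 overlapped the young animals by a narrow margin, and the value of Y3 rested on a single AFC read. ENSOARG00020000314 had an interaction of -1.66 ± 1.11, from -2.39 without O4 to -1.07 without O1, with both ages overlapping.

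The mean level of the 72 genes placed these single genes in context. On the log2(CPM + 0.5) scale it was 3.79 ± 0.18 in young NPC and 3.67 ± 0.40 in old NPC (mean ± SD, n = 4 each). For AFC it was 2.41 ± 0.25 in young and 2.01 ± 0.33 in old animals, with ranges of 2.10 to 2.72 and 1.61 to 2.35, so that ages overlapped. O1 and O3 had the lowest levels of the old animals in both cultures.

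**Figure D5:**
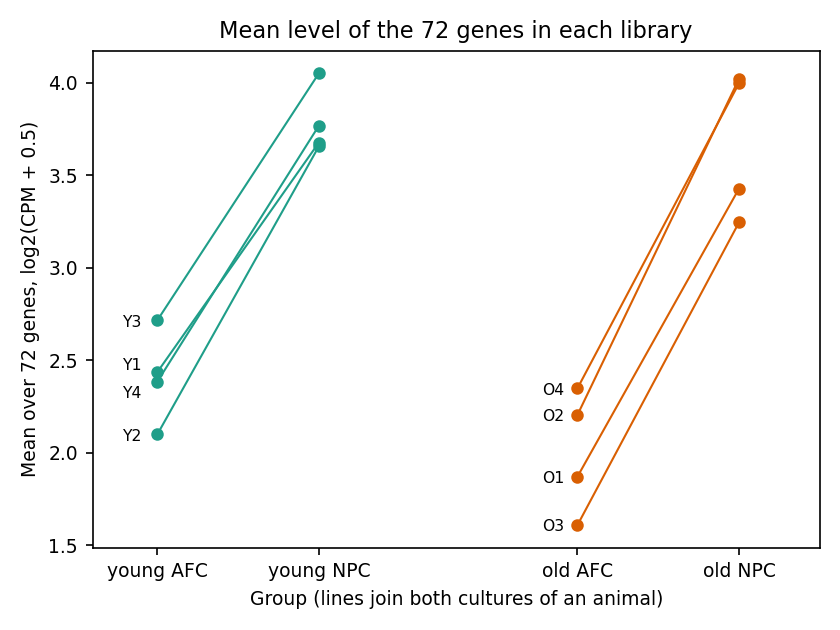
Mean of log2(CPM + 0.5) over the 72 genes in each library, with lines joining the AFC and NPC libraries of an animal and young animals in green and old animals in orange. The old AFC libraries lie between 1.61 and 2.35 and the young AFC libraries between 2.10 and 2.72, and within each age the lines run nearly parallel.

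As a share of all reads, the 72 genes took 0.311% ± 0.024 in NPC of young animals and 0.292% ± 0.082 in NPC of old animals (mean ± SD, n = 4 each). In AFC they took 0.152% ± 0.043 in young and 0.0855% ± 0.022 in old animals. The shares were 0.115% to 0.213% in young AFC and 0.0579% to 0.112% in old AFC, close to each other but without overlap. The share is carried largely by the 5 most abundant genes, whereas the mean log2 level weights all 72 equally. The SD over animals of a single gene had a median over the 72 genes between 0.57 in young NPC and 0.75 in old NPC. For the genes that qualified by level it was 0.16 and 0.23. The 72 genes were scarcer and chosen on large differences, so nothing is read from this contrast.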

How the data were processed

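RNA from 16 cultures (NPC and AFC of 4 young and 4 old sheep) was sequenced as stranded mRNA libraries. The authors aligned reads with STAR to the Rambouillet genome ARS-UI_Ramb_v2.0 with Ensembl annotation and deposited raw counts of reads per gene, with no normalisation. The submitters' processing notes name FastQC 0.11.8, fastp, STAR 2.7.10b and HTSeq 2.0.3. How strand and multi-mapped reads were handled in counting is not given in the sources used here, so overlapping genes and paralogues are less certain. Depth is the total of counted reads.

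CPM was computed from column totals, and members were chosen as described. The members, lists and tests were chosen with earlier results of these data known. Counts were fitted in R 4.3.3 with edgeR 4.0.16 (low-count filter, TMM, quasi-likelihood test, 4 group means, and a fit of 8 summed libraries for age), with Benjamini-Hochberg adjustment over all genes. Standard errors are the fold change over the root of its F statistic. DESeq2 1.42.0, limma 3.58.1 (voom), RLE normalisation, other filters, separate fits, a replicate block for the animal and omission of 1 animal at a time were alternatives. The scripts were tested on simulated counts.

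The labels give both cultures of an animal the same identifier. They were paired in the choice of the genes and in the fits with a replicate block. The main fit on the 4 groups had no term for the animal. Deviations of both cultures from the group means correlated by 0.23 on average over all genes, above 0.1 in 6 of 8 animals.

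Identifiers given are the 2 largest and 2 smallest mean differences, the 2 largest minimum differences, the 2 smallest p in each direction of each age comparison and the 2 genes on either side of the mean threshold. No more are printed because no symbol could be paired with an identifier: a table of symbols for assembly ARS-UI_Ramb_v3.0 matched 0 of 30722. Sequences and coordinates were not used here.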

Additional observations from a re-analysis of the deposited data

Results flagged for a closer look

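Single libraries stood apart from the other 3 of their group by Dixon's test at the 95% level in 5 of 76 groups examined (17 of the 72 genes, their mean level and the total counts, in 4 groups each). Chance alone gives about 1 in 20 such groups. Values are log2(CPM + 0.5). ENSOARG00020025675 was at 5.92 in O2 NPC (60.1 CPM), against 0.54 to 1.17 in the other old NPC libraries. ENSOARG00020034502 was at 5.25 in O2 AFC, against 4.90 to 4.95 in the other old AFC libraries. ENSOARG00020000314 was at -0.70 in Y2 AFC (0.116 CPM), against 0.11 to 0.26 in the other young AFC libraries. ENSOARG00020024751 was at 3.38 in O3 NPC, against 4.33 to 4.44 in the other old NPC libraries. ENSOARG00020009297 was at 5.11 in O4 NPC, against 5.61 to 5.70 in the other old NPC libraries.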

How the results depend on the processing

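The number of genes chosen was 72, and moved to 45 with 2 in place of 0.5 added to the CPM and to 285 with the rule applied to the 4 old animals alone (added after seeing the data). Leaving out an animal gave 70 to 116, the latter without Y2, and 115 without Y3. TMM or RLE library sizes, a limit of 1 or 5 CPM and no upper limit on the mean CPM gave 58 to 85, and a pseudocount of 0.1 gave 89. Genes of the 72 called by age in AFC numbered 0 with edgeR and 8 with DESeq2, and 0 to 1 with an animal left out (1 without O4). In the sums they were 0 and 4 with DESeq2. For the interaction they were 0 with edgeR, 0 with edgeR and the animal as a replicate block, and 4 with DESeq2 and the replicate block. The median interaction was 0.39, and 0.33 to 0.58 with an animal left out, with 0.56 without Y2 and 0.58 without O4. The replicate block in limma-voom called none in NPC or AFC, and RLE normalisation, no low-count filter and fits on 8 libraries also called none. The interaction rests on the values that chose the genes, so its counts are descriptions. The causes of these shifts were not tested. Neither depth nor the number of animals per age was varied, apart from leaving out single animals.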

Other observations

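The same limits in the opposite direction gave 54 genes that were lower in NPC in each of the 8 animals and averaged a difference of at most -1, of 309 genes lower in each animal. Their median difference was -1.17 in young and -1.82 in old animals, and 44 of the 54 (81.5%) had the larger difference in old animals. Among the 72 genes higher in NPC the same held for 47. Neither share was tested.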
